A study of Mus musculus with 7 samples.

Results

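Reads of 8 dendritic cell genes were followed in RNA sequencing libraries of mouse T-cells: Xcr1, Clec9a, Batf3 and Irf8 for conventional type 1 dendritic cells, Cd209a and Clec10a for conventional type 2 dendritic cells, Siglech for plasmacytoid dendritic cells and Zbtb46 for conventional dendritic cells of either type. They were selected by symbol, and all 8 were listed among the 25033 genes of each library. The choice was made with the difference between the groups already known, so their values in the 2 groups are given as a description, and where they are counted against thresholds applied to all genes, nothing is read from the count.

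The libraries came from primary T-cells of C57BL/6J mice aged 15 months, 1 library per mouse, from 3 wild-type (WT) littermates and 4 ORP4L KI mice. ORP4L KI mice carry a Rosa26 allele in which a CAG promoter and a floxed stop cassette precede Flag-tagged human ORP4L and EGFP, and the stop is removed by Cre under the T-cell promoter of Lck. ORP4L belongs to the oxysterol-binding proteins, and Osbp2 is its gene in the mouse. The KI mice were taken at a moribund state and the WT mice at the same age. Whether the WT littermates carried Cre or the floxed allele is not stated. T-cells were prepared from blood or spleen with a kit for naive CD4+ cells, and which source each library had, and whether its cells had been cultured, is not stated. By design the insert is switched on in T-cells and not in dendritic cells.

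Dendritic cells take up antigen and present it to T-cells. Conventional type 1 cells depend on the transcription factors Batf3 and Irf8, take up dead cells through Clec9a and carry Xcr1, the receptor for a chemokine released by activated CD8+ T-cells and NK cells. Conventional type 2 cells present antigen mainly to CD4+ T-cells, and Cd209a and Clec10a are C-type lectins found on many of them. Plasmacytoid cells are specialised in type I interferon, and Siglech is a sialic acid-binding lectin on their surface. Zbtb46 is a transcription factor of the conventional lineage. Irf8 is also made by B-cells, plasmacytoid cells and precursors.

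The total count per library was between 12918187 and 15912921 in WT and between 16757959 and 19665679 in ORP4L KI. Levels are given in CPM, the counts divided by a library size that TMM, a method that sets libraries to one scale by the bulk of their genes, has corrected, and 3 counts, the limit that a count of 0 allows, came to between 0.164 and 0.211 CPM, for counting error only. Osbp2, whose reads cannot be told apart from reads of the human insert here, had 0, 0 and 1 counts in WT replicates 1 to 3 and 188, 742, 155 and 443 in ORP4L KI replicates 1 to 4. The 8 T-cell marker genes, Cd3d, Cd3e and Cd3g among them, were detected in every library, with a summed level between 1540 and 2205 CPM in WT and between 1063 and 3106 CPM in ORP4L KI. Cd8a was at between 124 and 179 CPM in WT and between 79.6 and 226 CPM in ORP4L KI, beside Cd4 at between 257 and 360.0 CPM and between 93.4 and 415 CPM, although the kit is one for CD4+ cells. Markers of other cells were present as well. The 6 B-cell genes summed to between 246 and 478 CPM in WT and between 133 and 476 CPM in ORP4L KI. ORP4L KI replicate 1 stood apart, with 12.2% of its counts on 14 granulocyte genes against at most 4.91% in any other library, and values that rest on it are given with and without it.

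Cd209a had the largest difference of the 8 genes between the groups with all 7 libraries, although Siglech had a larger one without ORP4L KI replicate 1 (log2 fold change -2.49 against -2.31) or without ORP4L KI replicate 2 (-2.38 against -2.34). It was at 32.9, 54.5 and 37.6 CPM in WT replicates 1 to 3, from 529, 867 and 536 counts. It was at 6.03, 6.41, 10.5 and 8.40 CPM in ORP4L KI replicates 1 to 4, from 99, 117, 183 and 135 counts. The lowest WT library was 3.13 times the highest ORP4L KI library, so the groups lay far apart. The mean was 41.7 ± 11.4 CPM (SD, n = 3) in WT and 7.84 ± 2.06 CPM (SD, n = 4) in ORP4L KI, a log2 fold change of -2.41 (SE 0.27), or 5.31-fold lower in ORP4L KI. Without ORP4L KI replicate 1 and without any other library in turn, the log2 fold change was between -2.59 and -2.17.

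Cd209a is the first of 7 Cd209 genes in a run of 394.3 kb on chromosome 8 (GRCm38, chr8:3743397-4137707). The gene lies on the minus strand at chr8:3743397-3748984, and its longest coding transcript in GENCODE has 7 exons. These lectins are close relatives of the human receptor DC-SIGN. Of the 1528 stretches of 50 bases in the annotated transcripts of Cd209a, 0 occurred in another Cd209 transcript, so its reads of at least that length cannot come from another Cd209 gene without mismatches. The RefSeq promoters (GRCm38.p6) were searched on both strands for GGAA followed after any 2 bases by GAAA, a composite element of ETS and IRF factors. It was present in 2.72% of 32851 promoters of the same length, and in those of Cd209a, Cd209d and Cd209e among the 7 Cd209 genes. These 3 stretches are shown because they hold the element, and the element was looked at with the levels of the genes known, so that no relation between them is tested here. Each runs 5′ to 3′ on the minus strand from 130 bases before the RefSeq start to 20 bases after it, at chr8:3748965-3749114 for Cd209a, chr8:3878480-3878629 for Cd209d and chr8:3854267-3854416 for Cd209e, with the match, which lies on the opposite strand, in capitals.
Cd209a: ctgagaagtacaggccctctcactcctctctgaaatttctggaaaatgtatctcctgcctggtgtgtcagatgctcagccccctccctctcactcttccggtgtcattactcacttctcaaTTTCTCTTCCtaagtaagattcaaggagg
Cd209d: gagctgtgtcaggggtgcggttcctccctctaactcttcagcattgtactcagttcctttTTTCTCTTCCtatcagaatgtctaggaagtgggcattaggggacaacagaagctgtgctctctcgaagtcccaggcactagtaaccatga
Cd209e: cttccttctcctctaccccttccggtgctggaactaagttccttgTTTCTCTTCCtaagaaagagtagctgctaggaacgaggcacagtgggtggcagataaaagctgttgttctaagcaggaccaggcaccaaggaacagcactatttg

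The match begins 9 bases before the RefSeq start in Cd209a, 70 bases before it in Cd209d and 85 bases before it in Cd209e, and it has the same letters in all 3. A match of letters is a description of the sequence and not a site shown to be bound.

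Cd209d was at 11.2, 19.7 and 6.46 CPM in WT and at 1.03, 1.42, 1.78 and 1.93 CPM in ORP4L KI. Its groups did not overlap, and its log2 fold change was -3.01 (SE 0.41, adjusted p = 0.0601, edgeR's quasi-likelihood test over all genes). Cd209e was close to the limit of detection, at 0.25, 1.32 and 1.40 CPM in WT and between 0.05 and 0.23 CPM in ORP4L KI, with 4 counts both in its lowest WT and in its highest ORP4L KI library, and did not pass the filter on low counts. The genes whose listed promoter lacked the element were not alike. The stretch listed for Cd209c, chr8:3946814-3947113, lies inside its gene, which on the minus strand starts at chr8:3954746 in GENCODE. That 5′ end was not searched. Cd209c was at a like level in both groups, 3.52 ± 1.31 CPM (SD, n = 3) in WT and 3.35 ± 0.93 CPM (SD, n = 4) in ORP4L KI (log2 fold change -0.07, SE 0.37). Cd209b, which did not pass the filter, had 23, 20 and 2 counts in WT and 0, 0, 3 and 5 in ORP4L KI, and Cd209f and Cd209g had 0 in all 7 libraries.

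Clec10a, the other type 2 gene and a galactose-type lectin, lies on chromosome 11 (plus strand, chr11:70156197-70170834). It was at 12.4, 22.1 and 12.5 CPM in WT and at 9.62, 3.45, 5.69 and 5.41 CPM in ORP4L KI. Each ORP4L KI library was below each WT library, with ORP4L KI replicate 1 close to the lower WT libraries. The log2 fold change was -1.37 (SE 0.37), -1.69 without ORP4L KI replicate 1 and -1.04 without WT replicate 2. Clec10a shares 242 of its 2803 stretches of 50 bases (8.63%) with its neighbour and close paralog Mgl2, and how reads that fit both were counted is not stated. Mgl2, named here after its values were seen, was at 2.11, 3.84 and 2.88 CPM in WT and at 19.97, 2.46, 3.27 and 6.03 CPM in ORP4L KI, so that its one high library was also ORP4L KI replicate 1.

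Among the type 1 genes, Clec9a differed most. Clec9a, a receptor for actin exposed by dead cells (chromosome 6, plus strand, chr6:129408862-129424763), was at 33.6, 53.1 and 26.5 CPM in WT and at 7.24, 10.1, 18.4 and 13.3 CPM in ORP4L KI. The groups did not overlap, and the log2 fold change was -1.62 (SE 0.35). Irf8, the factor on which type 1 cells depend (chromosome 8, plus strand, chr8:120736358-120756694), was at 374.9, 428.0 and 252.3 CPM in WT and at 108.0, 128.5, 198.5 and 137.5 CPM in ORP4L KI. Its groups were apart as well, with a log2 fold change of -1.30 (SE 0.27). Irf8 alone made up most of the reads of the 8 genes.

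Xcr1 and Batf3 overlapped between the groups. Xcr1 (chromosome 9, minus strand, chr9:123852315-123862029) was at 19.4, 17.04 and 12.2 CPM in WT and at 5.84, 7.72, 14.9 and 7.15 CPM in ORP4L KI, a log2 fold change of -0.87 (SE 0.34). The overlap came from a single library, ORP4L KI replicate 3, and without it the log2 fold change was -1.23. Without ORP4L KI replicate 1, which held the lowest value, it was -0.71. Batf3 (chromosome 1, plus strand, chr1:191097847-191108945) was at 12.3, 15.2 and 5.69 CPM in WT and at 6.33, 2.85, 6.09 and 5.10 CPM in ORP4L KI, a log2 fold change of -1.12 (SE 0.39). Here WT replicate 3 lay among the ORP4L KI libraries, and without it the log2 fold change was -1.43. Without WT replicate 2, which held the highest value, it was -0.82.

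Siglech, the plasmacytoid gene (chromosome 7, plus strand, chr7:55768178-55778925), differed nearly as much as Cd209a. It was at 107, 144 and 80.9 CPM in WT, from 1723, 2292 and 1152 counts, and at 31.3, 26.2, 16.4 and 16.4 CPM in ORP4L KI, from 515, 478, 285 and 264 counts. The lowest WT library was 2.58 times the highest ORP4L KI library. The mean was 111 ± 31.8 CPM (SD, n = 3) in WT and 22.6 ± 7.45 CPM (SD, n = 4) in ORP4L KI, with a log2 fold change of -2.29 (SE 0.30).

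Zbtb46 (chromosome 2, minus strand, chr2:181387762-181459426) was at 11.99, 13.2 and 10.4 CPM in WT and at 1.83, 3.78, 5.34 and 4.85 CPM in ORP4L KI, again without overlap. Its log2 fold change was -1.58 (SE 0.35), and -1.35 without ORP4L KI replicate 1, which held the lowest value. The stretch listed as its RefSeq promoter, chr2:181424339-181424638, lies inside the gene and not at its GENCODE 5′ end, which was not searched. This stretch holds TGANTCA, the AP-1 element that Batf3-containing dimers can bind, 61 bases before the listed start. The string was found in 7.81% of all promoters on either strand, and no promoter site at the 5′ end of Zbtb46 is described by it. Of the 7 genes with a listed promoter, only the listed stretches of Zbtb46 and Cd209a held any of the 4 elements searched, and Clec10a had no entry. The other 2 were a pair of GAAA 2 bases apart, the IRF element that overlaps the composite one in form, in 3.44% of all promoters, and GAGGAAGT, an element of PU.1, in 3.2%.

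**Figure D1:**
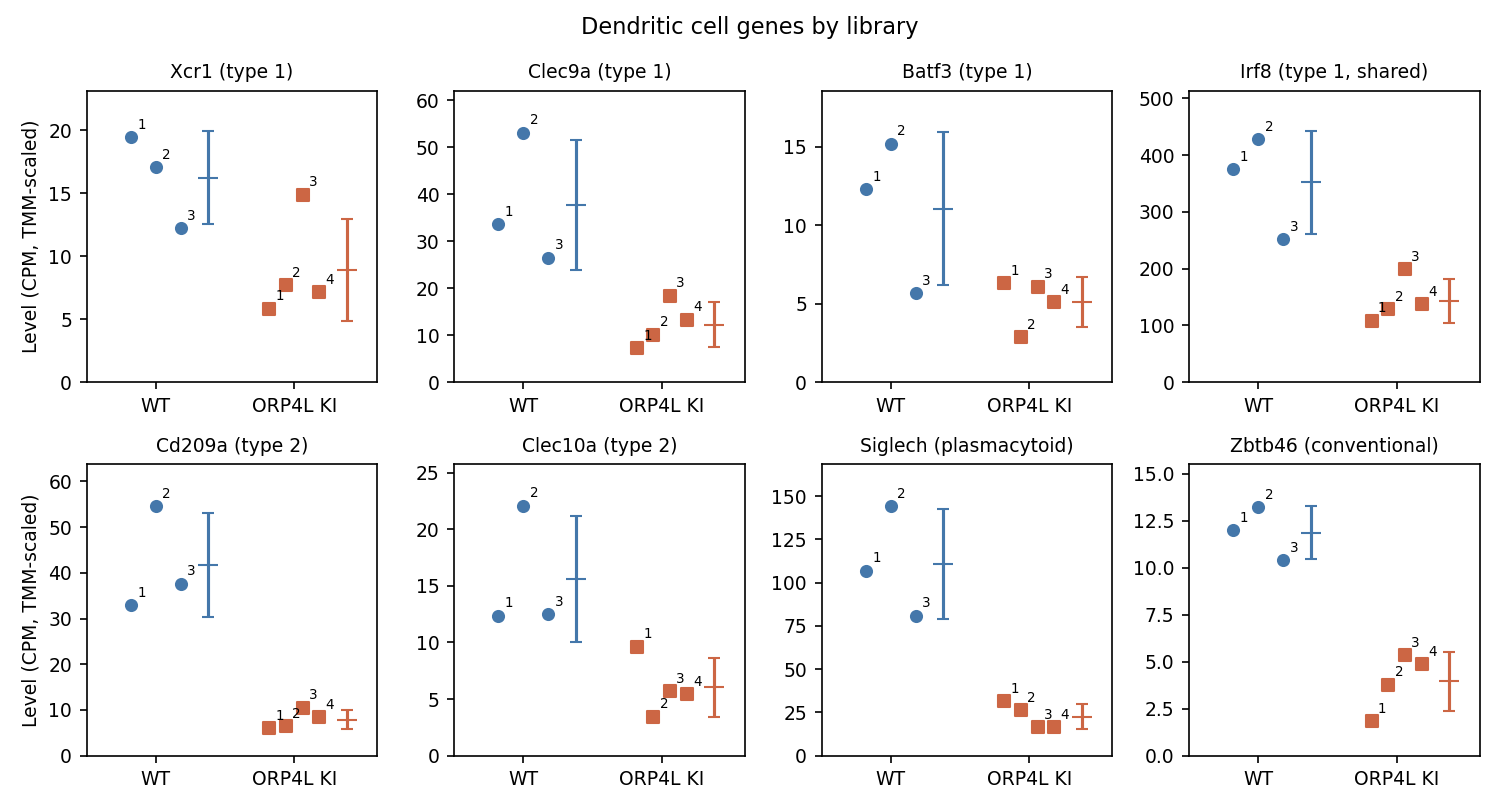
Level of each of the 8 genes in CPM (linear axes from 0) in the 3 WT libraries (blue circles) and the 4 ORP4L KI libraries (orange squares), numbered by replicate, with the mean and SD of each group beside them. Every ORP4L KI library lies below every WT library in 6 panels, while Xcr1 and Batf3 overlap through ORP4L KI replicate 3 and WT replicate 3.

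All 8 genes passed the filter on low counts and had a log2 fold change below 0, with a median of -1.48, against 48.5% of the 13462 genes tested and a median of 0.01. Calls required an unadjusted p under 0.01 together with a log2 fold change beyond -1 or 1. By this rule 6 of the 8 were called lower in ORP4L KI (not Xcr1 and Batf3), beside 4.68% of all genes called in either direction and 2.3% called lower. Higher genes made up 50.8% of all calls, or 40.3% when libraries were scaled by their total counts alone, which moved the median of all genes by -0.14. For 6 of the 8 genes the highest ORP4L KI library lay under the lowest WT library, beside 7.38% of all genes. Since the genes were chosen for this difference, the excess over all genes is no finding. In a bulk library, fewer cells of a type and less RNA per cell cannot be told apart.

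Taken as one sum, the 8 genes were at 604, 747 and 438 CPM in WT and at 176, 189, 276 and 198 CPM in ORP4L KI. This was 597 ± 155 CPM (SD, n = 3) against 210 ± 44.9 CPM (SD, n = 4), and the mean log2 sum differed by -1.50 (by -1.42 without ORP4L KI replicate 1). The genes did not follow the same libraries. WT replicate 2 held the highest WT level of 7 genes and WT replicate 3 the lowest of 6. In ORP4L KI, replicate 3 was highest for 5 genes (Xcr1, Clec9a, Irf8, Cd209a and Zbtb46) and replicate 1 for the other 3, Batf3, Clec10a and Siglech, although replicate 1 was also lowest for 5.

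Ratios within a library compare these few genes independently of scaling, and not the dendritic cell types as a whole. Type 2 reads (Cd209a and Clec10a) over type 1 reads (Xcr1, Clec9a and Batf3, without Irf8 because other cells make it) came to 0.692, 0.897 and 1.13 in WT and to 0.806, 0.477, 0.411 and 0.540 in ORP4L KI. The mean log2 ratio was lower by 0.72 in ORP4L KI, with a pooled SD of 0.39 and an overlap that rested on ORP4L KI replicate 1. Without that library the difference was -0.91. Siglech over the same type 1 reads came to 1.64, 1.69 and 1.82 in WT and to 1.61, 1.27, 0.415 and 0.642 in ORP4L KI. Its WT libraries were nearly equal while the ORP4L KI libraries were spread, from a value just under WT in replicate 1 to the lowest in replicate 3. The mean log2 ratio differed by -0.996, with a pooled SD of 0.70. It was -1.30 without ORP4L KI replicate 1 and -0.65 without ORP4L KI replicate 3. The wider lists described below did not show type 2 genes lower relative to type 1 genes. Their type 2 sum was between 910 and 1093 CPM in WT and between 875 and 1037 CPM in ORP4L KI. The type 1 sum was between 493 and 739 CPM and between 295 and 499.6 CPM. The plasmacytoid sum was between 559 and 786 CPM and between 361 and 521 CPM. Median log2 fold changes were -0.30, -0.68 and -1.23 in that order.

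Of the 28 ratios between 2 of the 8 genes, 7 had groups that did not overlap, and 5 of these held Cd209a. The share over pairs of all genes was not counted. The ratios have genes in common, and the 8 genes were chosen for their difference, so nothing is read from these counts. The log2 ratio of Cd209a was lower in ORP4L KI by 1.48 to Xcr1, by 1.34 to Batf3, by 1.11 to Irf8, by 1.00 to Clec10a and by 0.77 to Clec9a. Reads of Cd209a were thus fewer in each ORP4L KI library than in each WT library relative to every type 1 gene and to the other type 2 gene. The log2 ratio of Cd209a to Siglech overlapped and differed by -0.10, and that to Zbtb46 also overlapped. The remaining 2 ratios without overlap were Siglech to Xcr1, lower by 1.38, and Irf8 to Xcr1, lower by 0.36. At the other end, the log2 ratio of Zbtb46 to Clec9a was between -2.01 and -1.35 in WT and between -1.99 and -1.42 in ORP4L KI, and differed by -0.05.

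**Figure D2:**
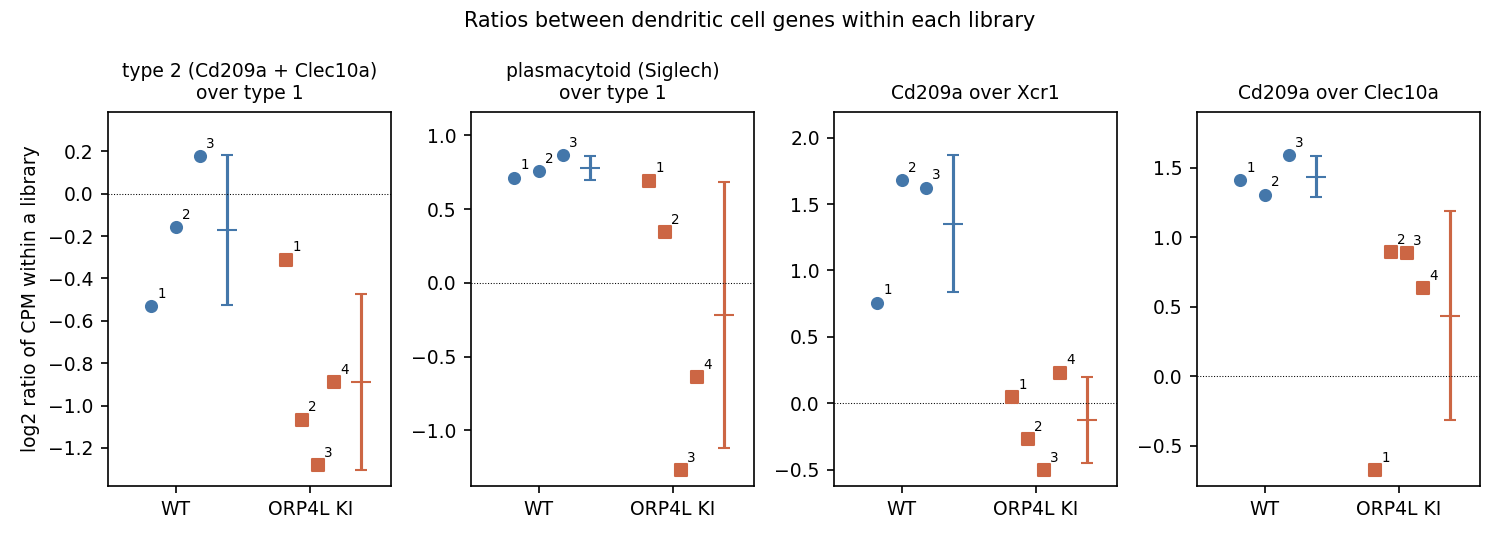
Ratios between dendritic cell genes within each library on a log2 axis, in WT (blue circles) and ORP4L KI (orange squares), numbered by replicate, with group mean and SD. The ratio of Cd209a to Xcr1 and to Clec10a is lower in each ORP4L KI library than in each WT library, whereas ORP4L KI replicate 1 lies within the WT range for type 2 over type 1.

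As shares of the summed level, Irf8 took 59.0% ± 2.66 (SD, n = 3) in WT and 67.7% ± 4.55 (SD, n = 4) in ORP4L KI. Cd209a took 7.11% ± 1.59 (SD, n = 3) in WT and 3.71% ± 0.40 (SD, n = 4) in ORP4L KI, and Siglech 18.5% ± 0.79 (SD, n = 3) and 11.5% ± 5.36 (SD, n = 4).

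Levels of different genes were compared per length, in the deposited RPKM. In WT the order was Irf8 at 109 ± 23.9, Siglech at 46.8 ± 11.03, Cd209a at 29.5 ± 6.51, Batf3 at 16.3 ± 6.60, Clec9a at 12.3 ± 3.81, Clec10a at 10.9 ± 3.26, Zbtb46 at 4.87 ± 0.37 and Xcr1 at 3.85 ± 0.85 RPKM (SD, n = 3). Neighbours in this order overlapped between Siglech and Cd209a, between Batf3, Clec9a and Clec10a, and between Zbtb46 and Xcr1. In ORP4L KI, Irf8 was still first without overlap, at 41.0 ± 13.2 RPKM (SD, n = 4). Batf3 at 6.72 ± 1.76 RPKM stood before Cd209a at 5.08 ± 1.52 RPKM, with overlap but with Batf3 higher in 3 of 4 libraries, whereas Cd209a was above Batf3 in 3 of 3 WT libraries. From Siglech down, each gene overlapped the next one in ORP4L KI.

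**Figure D3:**
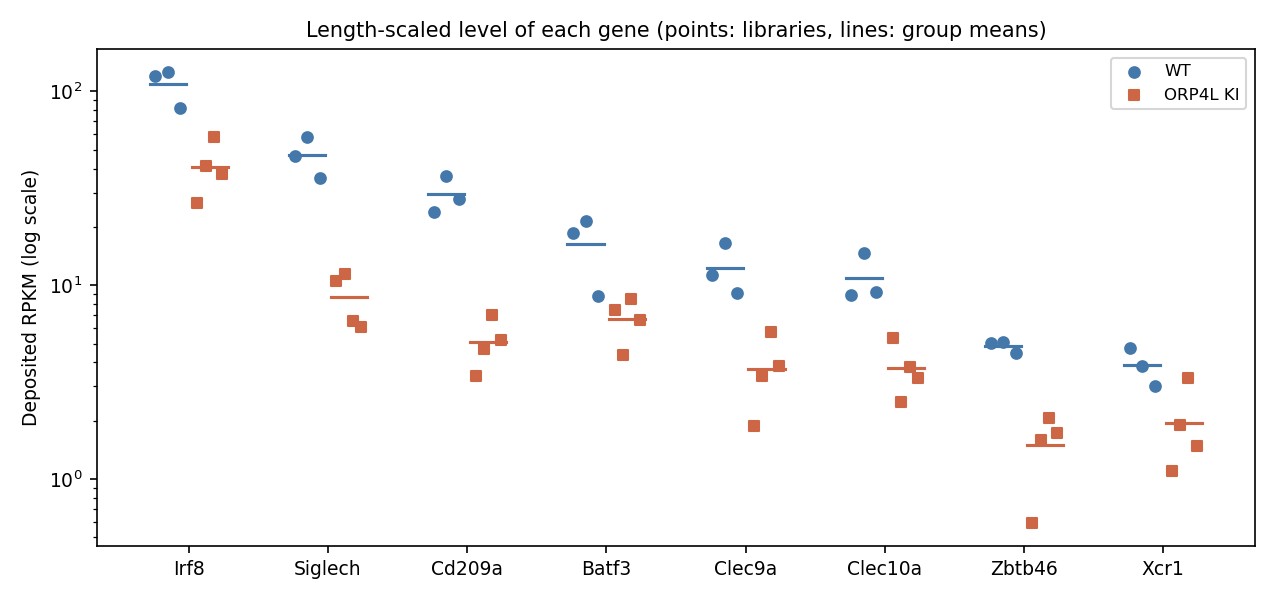
Deposited RPKM of the 8 genes on a log axis, ordered by their WT mean, for 3 WT libraries (blue circles) and 4 ORP4L KI libraries (orange squares), with lines at the group means. Irf8 is highest in both groups, and Cd209a moves from the third place in WT to the fourth in ORP4L KI, below Batf3.

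A further 65 dendritic cell genes were listed from general knowledge of the lineage. Earlier results of these data were known when the list was made, so counts over it are a description. Other cells make some of the listed genes too, called or not, and the part of those cells was not tested. The 65 genes were read in the same fit, and 60 passed the filter. Of these, 21 were called lower and 1 higher in ORP4L KI, with a median log2 fold change of -0.85, beside 2.3% and 2.38% of all genes and a median of 0.01. By edgeR's quasi-likelihood test 0 of the 60 had an adjusted p under 0.05 (36 had an unadjusted p under 0.05), beside 0.0223% of all genes in either direction, 0.0149% lower and 13.7% at that unadjusted p, and at that adjusted p DESeq2's Wald test and edgeR's exact test each gave 22 lower and 1 higher. The count called higher was 0 without any one of the WT replicates. Of the 21 called lower, Cd207 passed the filter only through its WT libraries. With at least 10 counts required in every library, 20 were called lower.

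The plasmacytoid list held the most called genes, with 8 of 14 lower, 0 higher and a median log2 fold change of -1.23. Klk1, a kallikrein protease, was at 39.6, 39.6 and 18.1 CPM in WT and at 3.84, 7.23, 2.53 and 5.35 CPM in ORP4L KI, a log2 fold change of -2.77 (SE 0.40, adjusted p = 0.0601). The others were Cox6a2 at -2.13, Cd300c at -1.90, Upb1 at -1.82, Ccr9 (a homing receptor for the gut) at -1.60, Spib (a transcription factor of the lineage) at -1.32, Bst2 at -1.14 and Tlr7 (a sensor of single-stranded RNA) at -1.12. Bst2 was the only one of the 8 whose groups overlapped. Irf7, an interferon regulator, was at -0.06 (SE 0.30).

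In the type 1 list 2 of 9 genes were called lower, with a median log2 fold change of -0.68. Wdfy4, needed for cross-presentation, was at 299.9, 323 and 258 CPM in WT and at 117, 120.4, 194 and 129.6 CPM in ORP4L KI (log2 fold change -1.07, SE 0.23, adjusted p = 0.0780). Clnk was at -1.15 (SE 0.28), and Naaa, an abundant lysosomal amidase, at -0.62 (SE 0.32), not called.

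In the type 2 list 1 of 9 genes was called in each direction, and the median log2 fold change was -0.30. Clec4a4, known as DCIR2, was at 10.1, 11.2 and 9.27 CPM in WT and at 3.71, 2.68, 4.88 and 2.24 CPM in ORP4L KI (log2 fold change -1.59, SE 0.31, adjusted p = 0.0680). Clec4a2 was the one gene higher, at 21.9, 22.8 and 14.3 CPM in WT and at 187, 29.7, 52.3 and 75.3 CPM in ORP4L KI (log2 fold change 2.13, SE 0.57, adjusted p = 0.129). Its highest library, ORP4L KI replicate 1, was the one with the most granulocyte reads, and the other ORP4L KI libraries were also above every WT library. Whether other cells had a part in its level was not tested. Clec4a4 and Clec4a2 share 15.7% and 6.15% of their stretches of 50 bases with relatives in the Clec4 cluster. The transcription factors Klf4 and Relb were at 0.09 (SE 0.23) and -0.54 (SE 0.33).

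Of 9 genes of dendritic cell development 3 were called lower, Kmo at -1.79 (SE 0.30), Flt3 at -1.44 (SE 0.28) and Itgax at -1.41 (SE 0.29). Flt3, the receptor of the growth factor that maintains dendritic cells, was at 86.6, 138 and 90.2 CPM in WT and at 29.7, 33.8, 58.2 and 32.7 CPM in ORP4L KI. Id2 and Spi1 were at 0.11 (SE 0.21) and -0.09 (SE 0.45). Of 3 ligands listed (Flt3l, Csf2 and Xcl1) 0 were called, and 0 had an unadjusted p under 0.05. Flt3l was at 31.9 ± 4.29 CPM (SD, n = 3) in WT and 23.8 ± 5.29 CPM (SD, n = 4) in ORP4L KI, and Xcl1, the chemokine read by Xcr1, at 54.0 ± 14.8 CPM (SD, n = 3) and 39.9 ± 11.999 CPM (SD, n = 4).

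Of 9 tested genes of mature, migratory dendritic cells 3 were called lower, with a median log2 fold change of -1.44. Apol7c was at 95.5, 107.5 and 47.7 CPM in WT and at 5.42, 15.6, 31.6 and 21.8 CPM in ORP4L KI (log2 fold change -2.17, SE 0.50), Ccl22 was at -2.16 (SE 0.57) and Fscn1, an actin bundler, at -1.69 (SE 0.43). Ccr7 was at -0.68 (SE 0.41), and Cd83 at -0.90 (SE 0.30). Ccl17 did not pass the filter. The list of lectins was split, with 4 of 8 log2 fold changes below 0 and a median of -0.55. Of its genes 3 were called lower, Cd207 at -2.30 (SE 0.65), Clec7a at -1.44 (SE 0.32) and Mrc1 at -1.19 (SE 0.35), while Clec4d was at 0.10 (SE 0.49). Cd207 had 19, 21 and 12 counts in WT and 1, 1, 8 and 5 in ORP4L KI. It passed the filter only through its WT libraries, so nothing is read from its call as lower. Clec12a, named after its values were seen, was at 1.24 (SE 0.52) with overlapping groups, uncalled.

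**Figure D4:**
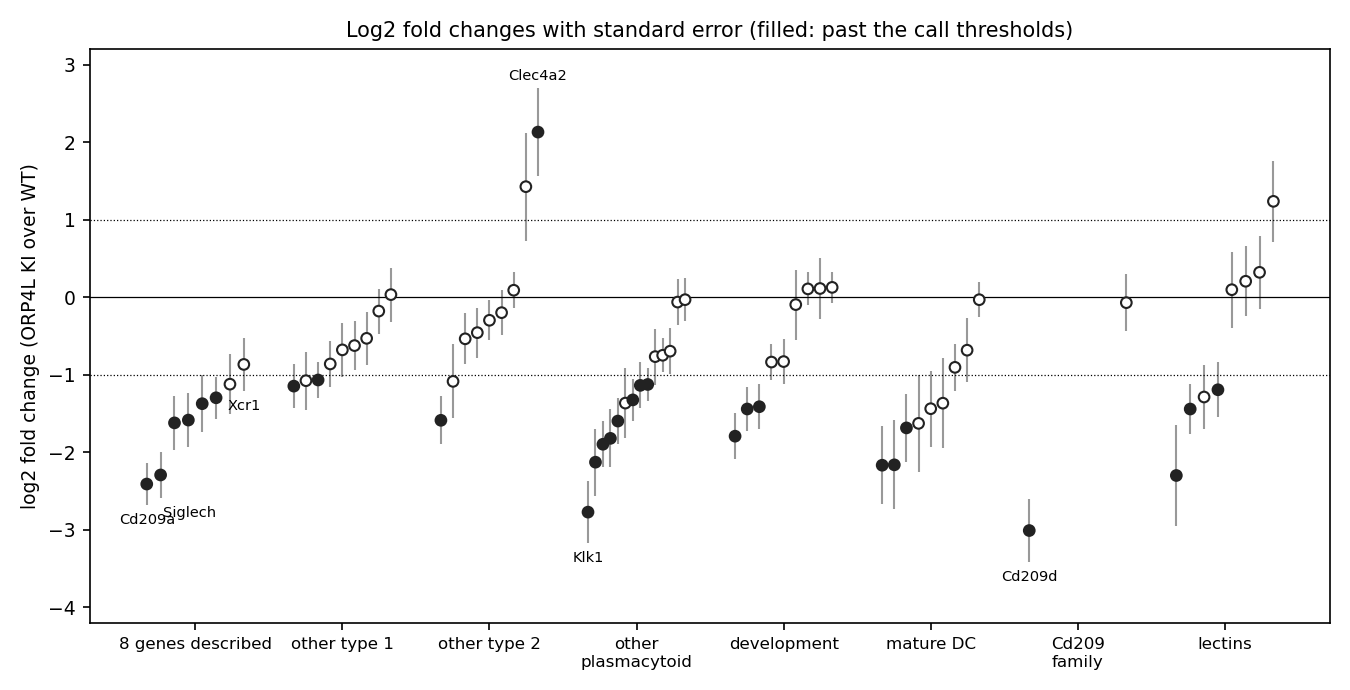
Log2 fold change (ORP4L KI over WT) with its standard error for the 8 genes and for the 60 other tested dendritic cell genes by list, filled where past the call thresholds, with dotted lines at -1 and 1. Cd209d, Klk1 and Cd209a lie lowest, and Clec4a2 is the only filled point above 0.

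Markers of other cell types also differed between the libraries. All 14 granulocyte genes were called higher in ORP4L KI, with a summed level between 1688 and 4898 CPM in WT and between 10294 and 146067 CPM in ORP4L KI. Of the T-cell genes 0 of 8 and of the B-cell genes 0 of 6 were called, and none of these had an unadjusted p under 0.05. Of 12 monocyte and macrophage genes 2 were called lower (Csf1r and Mertk) and 1 higher (Ly6c2), with summed levels between 842 and 1307 CPM in WT and between 752 and 1790 CPM in ORP4L KI. Of 8 NK cell genes 3 were called lower (Ncr1, Klrb1c and Gzma) and 0 higher, though Eomes at 1.59 (SE 0.50) and Nkg7 at 0.69 (SE 0.23) had every ORP4L KI library above every WT library and 1 gene was called higher by DESeq2's Wald test and by edgeR's exact test, with summed levels between 661 and 842 CPM in WT and between 480 and 1231 CPM in ORP4L KI. In each of these lists 0 genes were at 0 in every library. The part of these cells in the levels of the dendritic cell genes was not tested. The 3 ORP4L KI libraries other than replicate 1 held Cd209a at between 6.41 and 10.5 CPM. Siglech was at between 16.4 and 26.2 CPM in them, and both genes were below every WT library. These 3 libraries also held more granulocyte reads than any WT library, so leaving out replicate 1 does not remove that difference.

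**Figure D5:**
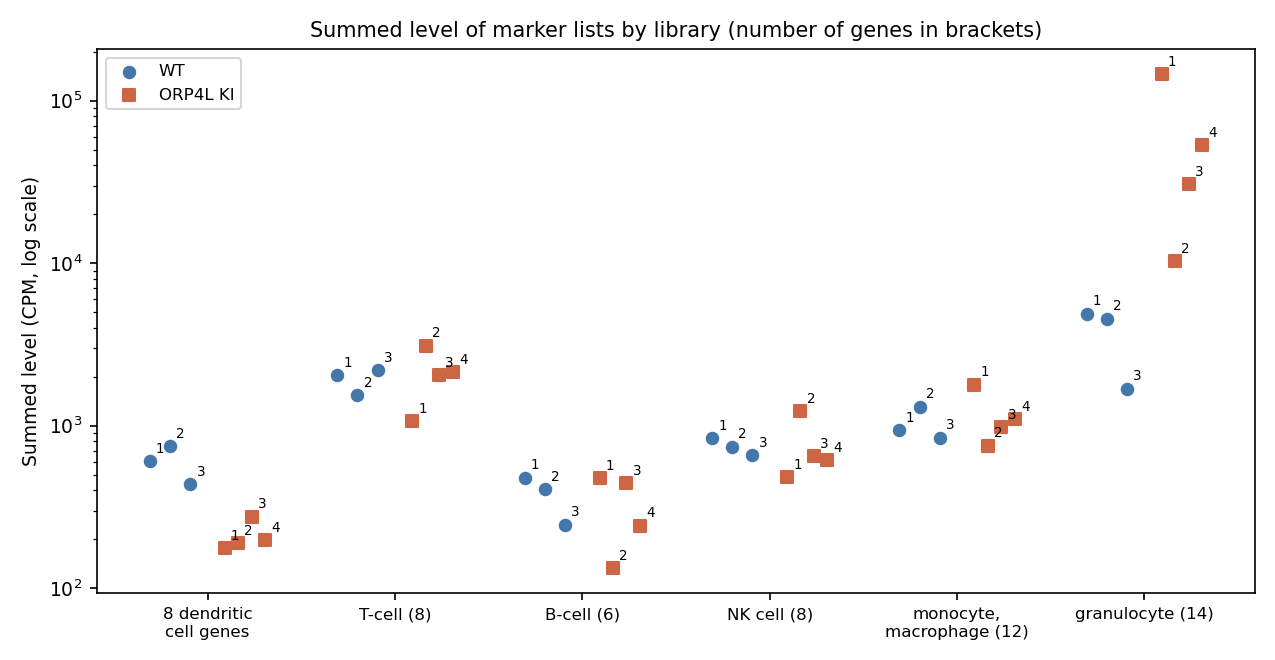
Summed CPM (log axis) of the 8 dendritic cell genes and of marker lists of other cells in each WT library (blue circles) and ORP4L KI library (orange squares), numbered by replicate. The dendritic cell sum is lower and the granulocyte sum higher in every ORP4L KI library, whereas the T-cell, B-cell, NK cell and monocyte sums overlap.

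Libraries also differed in Xist, the transcript of the inactive X chromosome, named here after its values were seen. It was at 373, 15.7 and 18.6 CPM in WT replicates 1 to 3 and at 391.5, 651, 22.1 and 22.3 CPM in ORP4L KI replicates 1 to 4. Among the libraries with high Xist, Cd209a was at 32.9 CPM in WT and at 6.03 and 6.41 CPM in ORP4L KI, and among those with low Xist at 54.5 and 37.6 CPM in WT and at 10.5 and 8.40 CPM in ORP4L KI. Siglech was at 107 CPM against 31.3 and 26.2 CPM with high Xist, and at 144 and 80.9 CPM against 16.4 and 16.4 CPM with low Xist. Both genes were thus lower in ORP4L KI within either set, each with too few libraries for a test. The ORP4L KI libraries with high Xist held the higher Siglech and the lower Cd209a levels of that group, and the part of sex in this was not tested.

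The genes whose level over the 7 libraries was most like that of Cd209a were Mapk10, Cntn1, Amz1, P3h2 and Sema3a, with a root mean square difference of centred log2 CPM between 0.19 and 0.30. Of these, Amz1 was the most abundant, at 37.2 CPM in WT and 9.44 CPM in ORP4L KI on average. Mapk10 was at 0.80 CPM in WT and 0.07 CPM in ORP4L KI, and Cntn1 at 2.34 and 0.25 CPM, near the limit of detection in ORP4L KI. Their log2 fold changes were -3.32 and -3.19, larger than that of Cd209a. The log2 CPM held an added prior count of 2, which narrows differences at such low levels, so nothing is read from their places. Siglech took place 98 in this order and Clec9a place 31. The mean of Xcr1 and Clec9a was most like Irf8, at 0.12, followed by Ccdc102a, Mycl, Cd83 and Cd36. Batf3 was at 0.51 from that mean, in place 674, and Cd209a at 0.61, in place 1488. These likenesses cover 7 libraries that fall in 2 groups, so any gene with a like difference between the groups ranks high.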

How the data were processed

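T-cell RNA of 4 ORP4L KI and 3 WT mice was sequenced by the authors as mRNA libraries, 1 per mouse, grouped by genotype as the sample labels give it. Adapters were trimmed, reads mapped with FANSe3 to a mouse mRNA reference database and splice variants merged by the authors, who deposited raw read counts per gene and RPKM computed on the longest transcript. The submitters' processing notes name mm10. How multiply mapping reads and strand were treated is not given in the sources used here, so paralogs are uncertain. RPKM served only to order genes by level.

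Counts were tested in R 4.3.3 with edgeR 4.0.16 (filterByExpr with a minimum count of 10, TMM, quasi-likelihood test, 7 libraries, no covariates), with Benjamini-Hochberg adjustment over 13462 genes. The standard error is the log2 fold change divided by the square root of F. The call thresholds are those of the study's volcano plot. The 8 genes, the gene lists, the motifs and the thresholds were chosen with earlier results of these data known. Genes named were the 8 genes, Osbp2, from each other dendritic cell list every gene past the thresholds and the 2 of highest mean RPKM, and the 5 nearest in profile to Cd209a and to the mean of Xcr1 and Clec9a. The replicates are separate mice, and no 2 libraries agreed within sampling noise. Alternatives were other scalings (DESeq2 1.42.0's size factors, upper quartile, total counts, TMM without granulocyte genes), filters and tests, a replicate block, and leaving out each library. On simulated data, with 195 of 13309 genes changed by a log2 fold change of 2, 192 (98.5%) were recovered at the call thresholds with 82 false calls. Most of the 8 genes changed by less than that. Genes were simulated independently and without the granulocyte difference, so these rates do not describe smaller changes or the real libraries. Shared sequence was counted on GENCODE vM21 transcripts, and promoters were those of RefSeq GRCm38.p6, the build of the files. Python 3.11.15 with pandas 2.3.3 and Matplotlib 3.10.9 served for tables and plots.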

Additional observations from a re-analysis of the deposited data

Results flagged for a closer look

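In groups of 4 ORP4L KI libraries, 3 of 46 gene groups held a library set apart from the others from the nearest by a gap above Dixon's critical value, where chance gives about 2.3. Wdfy4 was at 194 CPM in ORP4L KI replicate 3 and between 117 and 129.6 CPM in the other ORP4L KI libraries. Flt3 was at 58.2 CPM in the same library and between 29.7 and 33.8 CPM in the others. Mrc1 was at 2.74 CPM in ORP4L KI replicate 2 and between 5.54 and 5.57 CPM in the others.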

How the results depend on the processing

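The 8 dendritic cell genes kept their direction in all 56 values from the 7 fits without 1 library and in all 72 values of other scalings, filters and tests. The count of them called, 6, was between 5 and 7 without 1 library, and 1 (Cd209a) was past an adjusted p of 0.05, against 6 by DESeq2 and 6 by the exact test. No gene, Cd209a included, was past it without WT replicate 1, 2 or 3, without ORP4L KI replicate 4 or with at least 10 counts in every library. The 8 genes were chosen for this difference, so these counts only show how calls depend on the processing and are no test of the genes. Clec10a was not called without WT replicate 2, ORP4L KI replicate 3 or ORP4L KI replicate 4, Batf3 was called without WT replicate 3, with total counts, by DESeq2 and by the exact test, and Xcr1 was called without ORP4L KI replicate 3. The count of other dendritic cell genes called lower, 21, was between 15 and 24 without 1 library and 0 at an adjusted p under 0.05, and the count called higher, 1, was between 0 and 2 and then 0. Over all genes 630 were called, between 328 (without WT replicate 2) and 805 (without ORP4L KI replicate 2) when 1 library was left out, and 3 had an adjusted p under 0.05, against 784 by DESeq2 and 682 by the exact test. Scaled by total counts alone, the median of all genes moved by -0.14 and 275 of 682 calls (40.3%) were higher, against 320 of 630 (50.8%). The labels do not say whether the replicate numbers pair the mice. Same-numbered libraries correlated at between -0.53 and 0.15, and 3 such pairs cannot decide it. With a replicate block over replicates 1 to 3 the calls were 466 for all genes and 5 for the 8 genes (without Clec10a). For the other dendritic cell genes they were 18 lower and 1 higher. The direction of 6 named genes with log2 fold changes near 0 turned, each uncalled. With total counts Klf4 was at -0.041, Id2 at -0.016 and Clec4d at -0.087, and with the replicate block Clec4d was at -0.075. Without 1 library, Klf4 was between -0.040 and 0.22, Irf7 between -0.23 and 0.14, Id2 between -0.018 and 0.29, Spi1 between -0.41 and 0.34, Cd209c between -0.33 and 0.20 and Clec4d between -0.24 and 0.67. The cause of these shifts was not tested. Cd209e and Cd209b had too few counts to be tested at this depth, and Cd207 was not called without 5 of the 7 libraries in turn.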
